A study of Mus musculus with 4 samples.

Results

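The serpins are a large family of serine protease inhibitors and their relatives, grouped into clades that are written as the letter after Serpin in the symbol. All genes with a single symbol starting with Serpin in the array's probe annotation were taken, each by its brightest probe, judged by the mean of the 4 arrays; they number 54 of the 22180 genes measured. They were measured in fat from the epigonadal pad of fasted male mice on Affymetrix arrays, and each of 4 genotypes has 1 array. Mice called LDKO carry floxed Irs1 and Irs2 with Albumin cre, and their control, called here the Irs1/2-flox control, carries the same floxed genes without Cre. LTKO mice carry floxed Irs1, Irs2 and FoxO1 with Albumin cre, and their control, the Irs1/2:FoxO1-flox control, carries those floxed genes without Cre. All 4 groups thus have floxed Irs1 and Irs2. The albumin promoter directs Cre to hepatocytes, so the fat itself is not the target of the deletion. An age of 4 months is stated for LDKO and LTKO mice and none for the controls. Whether the RNA on an array came from 1 animal or from a pool is not stated either.

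A serpin inhibits its protease by offering an exposed loop as bait. When the protease cuts the loop, the serpin snaps into a new shape and traps the enzyme in a covalent complex, which cells then clear. Clade A holds plasma proteins made largely by the liver, including antitrypsins, antichymotrypsins and hormone carriers, clade B holds intracellular inhibitors that guard cells against leaked or delivered proteases, and the small clades C to I hold inhibitors of clotting, plasmin and complement, and the collagen chaperone Hsp47. Fat makes several serpins itself, among them C1 inhibitor and pigment epithelium-derived factor.

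Values are log2 signals, and a difference is given as Cre line minus control, so that 1 is 2-fold. With 1 array per group there is no standard error, no p-value and no replicate check for any value below. A gene entered a comparison if its higher array reached the median gene, a log2 signal of 5.15, since dimmer signals may be mostly background. Signals of different probes are not compared with each other. In this bulk tissue, fewer cells of a type and less RNA per cell cannot be told apart. The 8 measured adipocyte markers averaged 11.3 in LDKO and 11.1 in its control, and 11.1 in LTKO and 11.1 in its control, so the adipocyte markers were present on every array.

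The LTKO array stood apart in markers of other tissues. Of the hepatocyte markers, 3 of the 5 past the filter were 2-fold or more above the control in LTKO, and the list's mean level over 10 genes was 6.50 in LTKO, 5.31 in its control, 5.39 in LDKO and 5.43 in the Irs1/2-flox control. The mean level was 5.15 in LTKO and 3.54 in its control for 9 epididymis genes, and 6.42 in LTKO and 4.64 in its control for 7 testis and sperm genes. Past the filter, LTKO was 2-fold or more above its control for 5 of 5 epididymis genes and 5 of 6 testis and sperm genes. Over all genes past the filter this share was 1.73%. Every gene called in both lists, and Apoa1 and Ahsg of the hepatocyte list, passed only through the LTKO array, so the filter favoured such calls. Over all measured genes, 7 of 9 epididymis and 6 of 7 testis and sperm genes were above the control, with medians of 1.11 and 2.08. Without the filter the median over all 22180 genes was -0.02. The Irs1/2-flox control array had the highest mean for mesothelium (7.16, against 6.50 to 6.64 on the others), skeletal muscle (6.44, against 5.198 to 5.32), mast cells (5.52, against 4.86 to 5.05) and macrophages (8.82, against 8.28 to 8.62). None of the 5 neutrophil markers reached the filter in any comparison. The fibroblast and endothelial lists had no member 2-fold apart in any comparison.

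Clade A has 20 of the members, clade B 25, clades F and I 2 each and clades C, D, E, G and H 1 each. Most Serpin genes gave little signal in this fat. Of the 54, 8 reached the median gene on all 4 arrays: Serpina3n, Serpinb6a, Serpinb6b, Serpinb8, Serpinb9, Serpinf1, Serping1 and Serpinh1. Another 4, Serpina1b, Serpina1c, Serpina3b and Serpinb1a, did so on 1 to 3 arrays, and 42 did so on none. Over the 4 arrays, the 42 differed by between 0.08 and 0.89 from their lowest to their highest array, with a median of 0.30, which is also the median of all 10222 genes that stayed below the median gene. Of all 54 members, 4 had a range of at least 2-fold (7.41%), against 2.84% of all genes: Serpina1c at 3.97, Serpina3b at 2.19, Serpinb1a at 1.18 and Serpinb6b at 1.13. The LTKO array was the highest of the 4 for 17 members, or 31.5%, against 21.7% of all genes, and the lowest for 17 members, also 31.5%, against 25% of all genes. These ranks are mostly among dim signals: of the 12 members that reached the median gene on any array, LTKO was highest for 2 and lowest for 6.

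**Figure D1:**
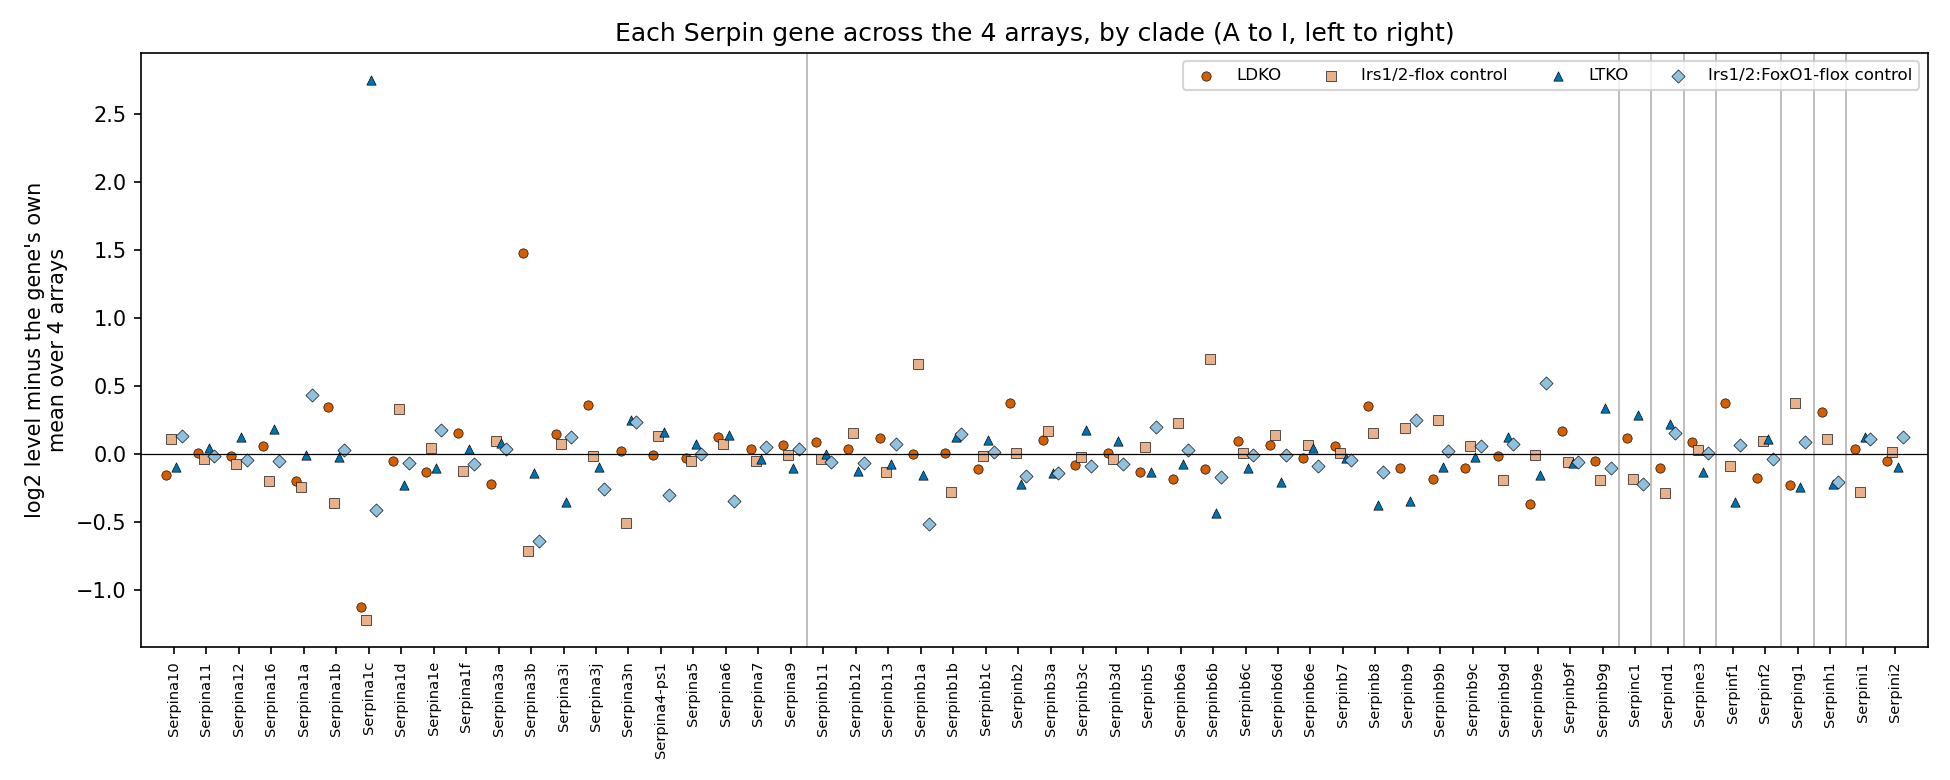
Log2 level of each of the 54 Serpin genes on each array, minus the gene's own mean over the 4 arrays, with genes ordered by clade and vertical lines between clades. LTKO (triangles) stands apart at Serpina1c and LDKO (circles) at Serpina3b, and the Irs1/2-flox control (squares) is highest at Serpinb1a and Serpinb6b.

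Serpina1c in LTKO and Serpina3b in LDKO, the 2 serpins at least 2-fold apart from their own control, lie in 2 gene clusters of clade A on chromosome 12. The other measured genes of these clusters were not 2-fold apart from their control. Promoters of Serpina1a to Serpina1e, Serpina3b and Serpina3n are shown to let the copies be compared base by base. Serpina1a to Serpina1e are related copies of the gene for alpha-1 antitrypsin, the chief inhibitor of neutrophil elastase in plasma, and their number varies between mouse strains. The encoded proteins were not compared here, so a function shared by all 5 copies is not shown. The sequences are RefSeq promoters of build GRCm38.p6, read in the direction of transcription, which is the minus strand for these 5 genes; 47 of the 54 members had an entry. Windows of 165 bases were lined up without gaps on a run of 59 bases that all 5 share, and capitals mark bases that differ from the most common base of the 5 genes. The windows lie at chr12:103863575-103863739 for Serpina1a, chr12:103738150-103738314 for Serpina1b, chr12:103904912-103905076 for Serpina1c, chr12:103773584-103773748 for Serpina1d and chr12:103956910-103957074 for Serpina1e.
Serpina1a: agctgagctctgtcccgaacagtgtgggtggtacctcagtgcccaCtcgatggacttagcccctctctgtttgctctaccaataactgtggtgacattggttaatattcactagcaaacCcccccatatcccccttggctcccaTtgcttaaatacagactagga
Serpina1b: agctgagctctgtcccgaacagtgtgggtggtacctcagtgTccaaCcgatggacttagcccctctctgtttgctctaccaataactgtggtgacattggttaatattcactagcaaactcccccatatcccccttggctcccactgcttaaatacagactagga
Serpina1c: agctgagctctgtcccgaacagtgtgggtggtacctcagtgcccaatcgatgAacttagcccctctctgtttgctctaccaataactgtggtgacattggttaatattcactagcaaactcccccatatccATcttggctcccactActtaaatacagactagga
Serpina1d: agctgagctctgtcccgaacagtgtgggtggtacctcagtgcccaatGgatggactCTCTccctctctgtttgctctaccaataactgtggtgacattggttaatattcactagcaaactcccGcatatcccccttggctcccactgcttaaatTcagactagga
Serpina1e: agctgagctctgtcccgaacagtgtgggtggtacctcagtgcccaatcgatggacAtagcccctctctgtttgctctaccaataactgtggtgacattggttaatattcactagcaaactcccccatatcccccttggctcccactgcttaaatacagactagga
Pairs of these windows were between 93.3% (Serpina1c and Serpina1d) and 98.2% (Serpina1b and Serpina1e) identical. The Serpina1c window had 4 bases of its own, against 1 in Serpina1e and 7 in Serpina1d. The shared run begins between 55 and 117 bases before the RefSeq start and was found in 5 of 32851 promoter entries of 300 bases (0.0152%), those of these 5 genes. It holds the letters GTTAAT, which open the usual binding site of the liver factor HNF1. Searched on both strands, GTTAAT was in 7.1% of all entries and in those of 9 members.

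Serpina3b and Serpina3n belong to a second cluster, the mouse relatives of human antichymotrypsin. Serpina3n inhibits leukocyte proteases such as cathepsin G and is an acute phase gene. Their whole promoter entries, from 250 bases before to 50 after the start, lie on the plus strand at chr12:104127746-104128045 for Serpina3b and chr12:104406458-104406757 for Serpina3n, and capitals mark the longest run that both share.
Serpina3b: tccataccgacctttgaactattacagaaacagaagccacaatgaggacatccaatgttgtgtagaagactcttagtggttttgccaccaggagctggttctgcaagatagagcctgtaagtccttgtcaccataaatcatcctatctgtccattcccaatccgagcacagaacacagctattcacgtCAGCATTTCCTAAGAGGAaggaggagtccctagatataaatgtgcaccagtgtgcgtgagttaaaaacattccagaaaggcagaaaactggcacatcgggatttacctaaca
Serpina3n: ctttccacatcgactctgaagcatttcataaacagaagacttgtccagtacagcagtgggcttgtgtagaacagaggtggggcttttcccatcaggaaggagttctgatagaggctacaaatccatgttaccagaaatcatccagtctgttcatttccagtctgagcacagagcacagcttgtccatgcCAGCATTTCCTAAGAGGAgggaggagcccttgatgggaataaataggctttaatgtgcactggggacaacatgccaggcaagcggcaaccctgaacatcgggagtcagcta
The shared run of 18 bases begins 62 bases before the start in Serpina3b and 61 bases before it in Serpina3n. It was in 3 of the 32851 entries, those of Serpina3b, Serpina3c and Serpina3n. The letters TATAAA, searched on both strands, were in the Serpina3b entry and not in that of Serpina3n, and 13.6% of all entries hold them. Serpina3c is not analysed here.

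The first comparison asked how fat differs when hepatocytes lack Irs1 and Irs2. Serpina3b was the 1 serpin at least 2-fold higher in LDKO than in its control, and no serpin was 2-fold lower. Of all 11533 genes past the filter 0.572% were 2-fold higher and 0.624% 2-fold lower. Of the serpins 11 passed the filter, so a single gene makes up the count. Below 2-fold, Serpina1b was 5.63 in LDKO and 4.93 in its control, a difference of 0.71, and 0.31 against the other control. Serpina1b entered this comparison only through the LDKO array. Serpina3b had a log2 signal of 6.08 in LDKO against 3.89 in its control, and 4.46 in LTKO against 3.96 in the Irs1/2:FoxO1-flox control. LDKO alone reached the median gene, so this gene entered only through the array on which it was high. The difference was 2.19, a ratio of 4.57 as deposited against a control signal not shown to be above background, and 2.12 when the Irs1/2:FoxO1-flox control was used instead. LTKO set against LDKO was at -1.62. It was among 26 genes (0.217% of 11958) that LDKO had at least 2-fold above all 3 other arrays.

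Measured relatives in the cluster were not 2-fold apart. Serpina3a, next to it in the cluster, was 2.84 in LDKO and 3.16 in its control, and Serpina3i and Serpina3j, further along, differed by 0.07 and 0.37, and all 3 had dim signals. Serpina3n had a signal of 11.21 in LDKO against 10.68 in its control, and 11.44 in LTKO against 11.42 in its control. Its Irs1/2-flox control value was the low one of the 4, since LDKO differed by 0.53 from that array and by -0.21 from the other control. In LDKO 4 of 10 measured hepatocyte markers and 4 of 9 measured epididymis markers were above their control values. Of the hepatocyte markers 3 passed the filter, 2 above and 1 below the control and none 2-fold apart, with Alb highest at 0.60. No epididymis marker passed the filter, so that list could not give a 2-fold call. The part of liver or epididymal signal in the Serpina3b value was not tested.

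Of the 5 intracellular clade B serpins past the filter, LDKO was below its control for 4 and above it for 1, none by 2-fold. Most genes lay on that side, since 43.2% of all genes past the filter were above 0. Serpinb6b, which inhibits granzyme A in mouse, was 6.19 in LDKO and 6.99 in its control, a difference of -0.81. Serpinb1a, an inhibitor of neutrophil elastase and cathepsin G, was 4.51 in LDKO and 5.17 in its control, a difference of -0.67. Serpinb1a passed the filter only through its control array, so among the 4 it could only be counted as lower. For both genes the Irs1/2-flox control was the highest of the 4 arrays, and against the other control LDKO differed by 0.06 and 0.51, which is not lower. Serpinb6a, an inhibitor of cathepsin G, was 6.16 in LDKO and 6.58 in its control, a difference of -0.41. Serpinb9, which protects cells from granzyme B, was 6.06 in LDKO and 6.36 in its control, a difference of -0.29. Both were also lower against the other control, at -0.21 and -0.35. Serpinb8, which can inhibit furin, was 6.06 in LDKO and 5.86 in its control. Over all 25 clade B members, most of them dim, 11 were above and 14 below the control, and of the 20 in clade A 15 were above and 5 below it. Without the filter the median over all 22180 genes was 0.0009, and the share of them above 0 was not counted. Between the controls, with the Irs1/2-flox control as reference, clade A also had 15 above and 5 below, and clade B had 9 above and 15 below. Both comparisons share the Irs1/2-flox control array, so a high or low value there would give the same lean in each. Whether the leans belong to LDKO or to that control array cannot be told from these counts. All 7 macrophage, all 9 mesothelial and all 3 mast cell markers past the filter were lower in LDKO too, with medians of -0.35, -0.62 and -0.44. Among them Upk3b and Folr2 were 2-fold lower. All 5 skeletal muscle markers past the filter were also lower, 3 of them by 2-fold, with a median of -1.29. The markers Tpsb2, Myh4 and Ttn passed only through the control array, so they could only be counted as lower. The part of these cell types in the clade B values was not tested.

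Among the remaining clades, Serping1 was lower and Serpinf1 and Serpinh1 were higher in LDKO than in both controls, none by 2-fold. Serping1 encodes C1 inhibitor, which blocks the complement proteases C1r and C1s and plasma kallikrein. It was 10.06 in LDKO and 10.66 in its control, a difference of -0.60, and -0.31 against the other control. Serpinf1 encodes pigment epithelium-derived factor, a serpin that inhibits no protease and that binds the lipase Pnpla2. It was 7.32 in LDKO and 6.86 in its control, a difference of 0.46, and 0.31 against the other control. Serpinh1, the collagen chaperone Hsp47, was 7.47 in LDKO and 7.27 in its control, and 6.95 in LTKO and 6.96 in its control. All 6 fibroblast markers were lower in LDKO than in its control, with a median of -0.34, and their part in the Serping1 value was not tested. Both sets of differences share the LDKO array, so the second is not an independent check. The median difference of the 11 serpins past the filter was 0.20, against -0.05 for all genes past it, and it turned to -0.11 with the filter at the 70th percentile. Over all 54 it was 0.05, against 0.0009 for all genes without the filter, with 32 above and 22 below their control.

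**Figure D2:**
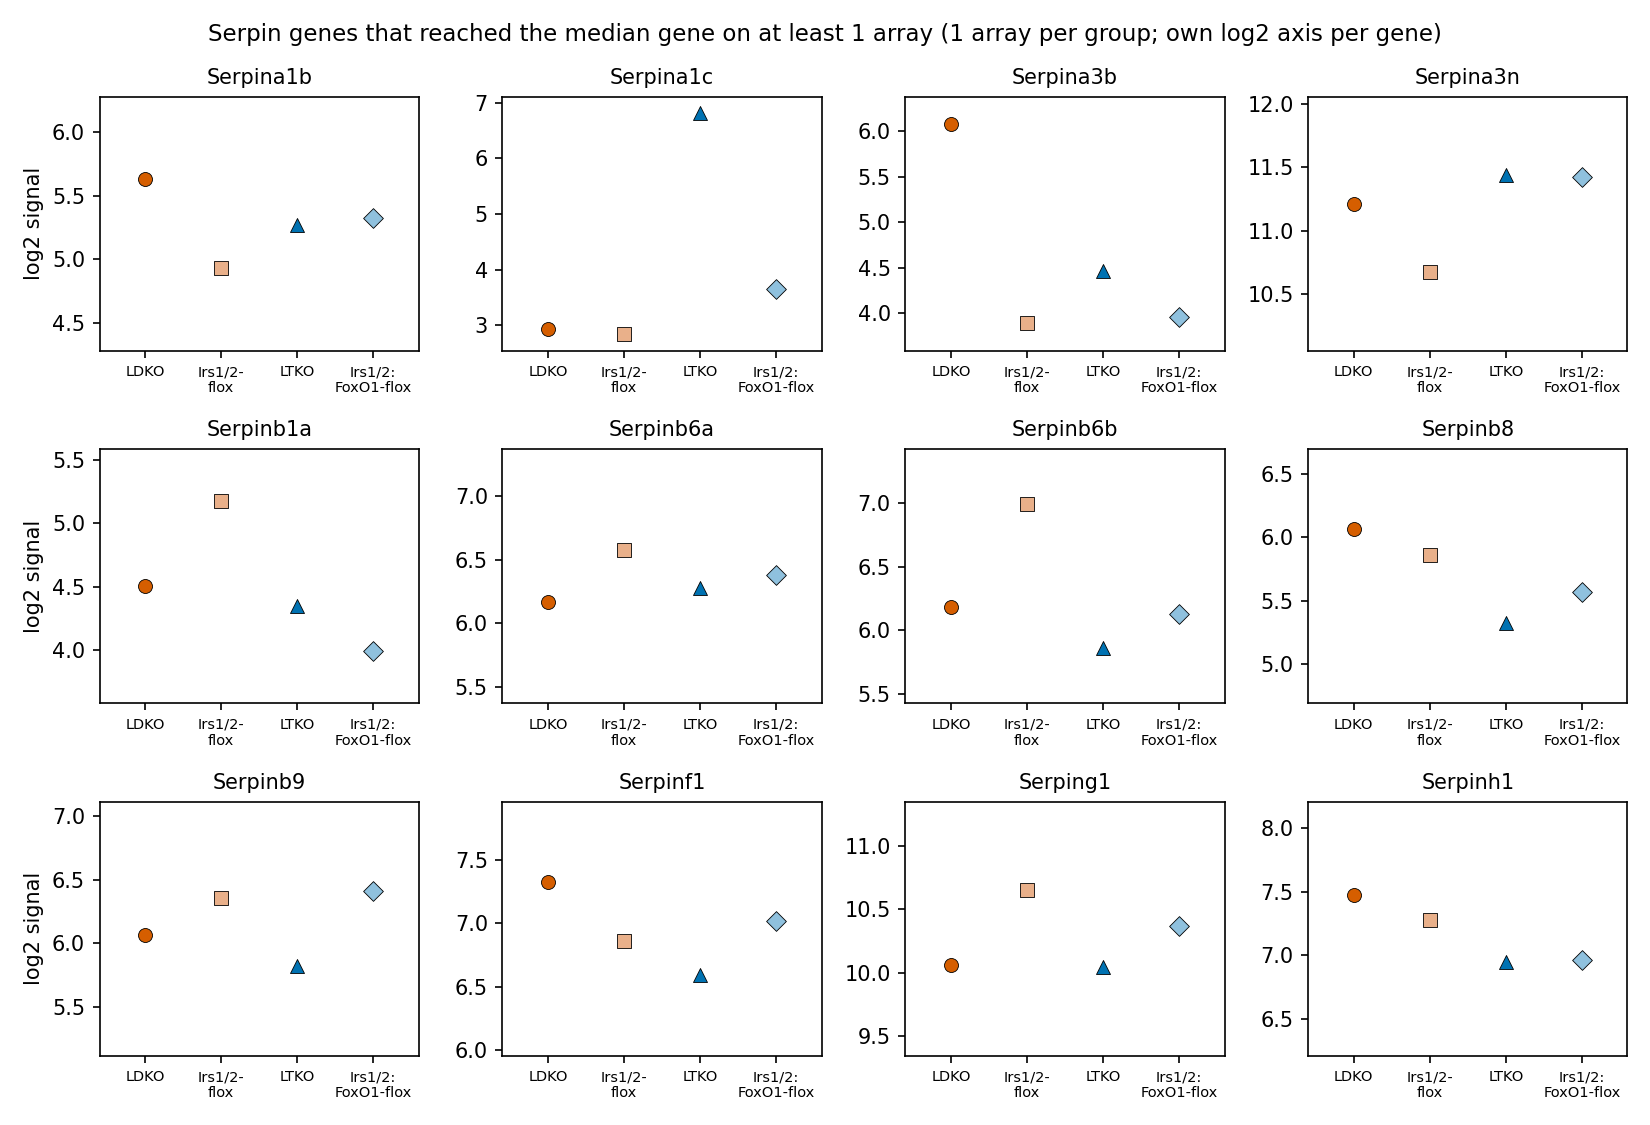
Log2 signal on each of the 4 arrays (1 per group) for the 12 Serpin genes that reached the median gene on at least 1 array, each with its own log2 axis spanning at least 2 units. LTKO stands alone at 6.81 for Serpina1c and LDKO at 6.08 for Serpina3b, while the other 10 genes differ by at most 1.18 over the 4 arrays.

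The second comparison asked the same of mice whose hepatocytes also lack FoxO1. Serpina1c was the 1 serpin that LTKO had 2-fold or more above its control, and none was 2-fold lower. Across all 11533 genes 1.73% were 2-fold higher and 0.0434% 2-fold lower. Serpina1c had a log2 signal of 6.81 in LTKO against 3.65 in its control, and 2.93 in LDKO against 2.84 in the Irs1/2-flox control. Only the LTKO array reached the median gene. The difference was 3.17, a ratio of 8.98 as deposited, against a control signal not shown to be above background. Against the Irs1/2-flox control it was 3.97 and against LDKO 3.88. It was among 67 genes (0.56% of 11958) that LTKO had at least 2-fold above all 3 other arrays.

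None of the other alpha-1 antitrypsin copies was 2-fold apart. Serpina1b was 5.27 in LTKO and 5.32 in its control, and 5.63 in LDKO and 4.93 in the Irs1/2-flox control. Serpina1a was 3.48 in LTKO and 3.92 in its control, and 3.29 in LDKO and 3.25 in its control. Serpina1d lay between 2.06 in LTKO and 2.62 in the Irs1/2-flox control, while Serpina1e was lowest in LDKO (4.35) and highest in the Irs1/2:FoxO1-flox control (4.66). Of these 4 copies Serpina1b alone passed the filter, with a difference of -0.05 in LTKO. Serpina1a, Serpina1d and Serpina1e stayed below the median gene on every array, with differences of -0.44, -0.16 and -0.28 at dim signals. In the RefSeq order Serpina1c lies between Serpina1a and Serpina1e, so its immediate neighbours are among the 4. The copies are close to identical, and how the array's probes separate them is not given in the sources used here, so the assignment of the signal to Serpina1c rather than to another copy is uncertain.

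Other plasma serpins of hepatocytes were also set beside the liver markers. Serpinc1, or antithrombin, was 3.87 in LTKO and 3.36 in its control, and 3.70 in LDKO and 3.40 in its control. Serpina6, the corticosteroid carrier, was 3.59 in LTKO and 3.11 in its control, and 3.58 in LDKO and 3.52 in its control. Serpind1, or heparin cofactor II, was 4.49 in LTKO and 4.42 in its control, and 4.16 in LDKO and 3.97 in its control. These 3 genes were thus within 0.51 of their control in both Cre lines. Serpinf2, the plasmin inhibitor, was 4.10 in LTKO and 3.96 in its control, and 3.81 in LDKO and 4.09 in its control. Serpina7, the thyroxine carrier, differed by -0.09 in LTKO. Serpina10, a clotting inhibitor that works with protein Z, differed by -0.22, and Serpina11 by 0.06. All 7 stayed below the median gene on every array. The albumin gene Alb was 9.82 in LTKO and 6.93 in its control, and Ahsg was 6.85 in LTKO and 4.13 in its control, differences of 2.89 and 2.73. Over the hepatocyte list 9 of 10 genes were higher in LTKO, with a median of 0.96 over all 10, against -0.02 for all genes without the filter. Apoa1 was 6.36 in LTKO and 4.87 in its control, while Fga differed by 0.17 and Cyp2e1, at 13.04 in LTKO and 13.14 in its control, by -0.11. The part of liver, epididymal or sperm signal in the Serpina1c value was not tested.

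**Figure D3:**
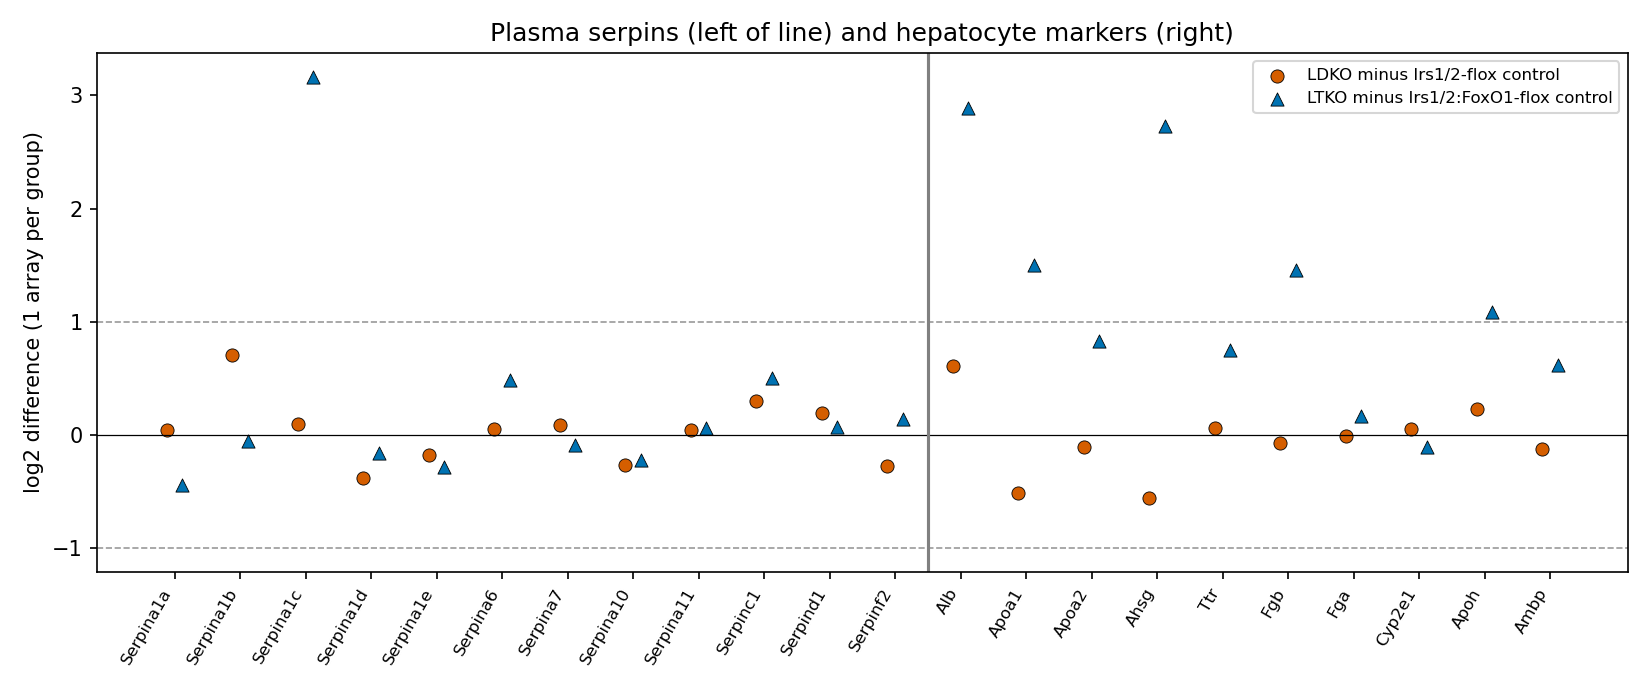
Log2 differences, 1 array per group, of 12 plasma serpins (left of the vertical line) and the 10 hepatocyte markers (right), with dashed lines at 2-fold. In LTKO minus its control (triangles) Serpina1c is at 3.17 among serpins that otherwise lie between -0.44 and 0.51, and Alb and Ahsg are at 2.89 and 2.73; in LDKO minus its control (circles) no gene shown reaches 2-fold.

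Among the 8 serpins that reached the median gene on all 4 arrays, LTKO differed from its control by -0.59 to 0.01, and 42.8% of all genes past the filter were above 0 in this comparison. Serpinb9 was farthest from its control, with 5.82 in LTKO and 6.41 in its control, -0.59. Serpinf1 was 6.60 in LTKO and 7.02 in its control, a difference of -0.42, and Serping1 was 10.04 in LTKO and 10.37 in its control, a difference of -0.33. Serpinb6b differed by -0.26, and Serpinb8, at 5.33 in LTKO and 5.57 in its control, by -0.24. Serpinb6a, at 6.27 in LTKO and 6.38 in its control, differed by -0.10, Serpinh1 by -0.01 and Serpina3n by 0.01. None was 2-fold apart from its own control. Against the Irs1/2-flox control Serpinb6b was 2-fold lower in LTKO, at -1.13, and Serpina3n was higher by 0.76. With that reference 47 of 11612 genes past the filter were 2-fold lower. The 10 serpins past the filter had a median of -0.17, against -0.03 for all genes past it. Over all 54 members the median was -0.0083, against -0.02 for all genes without the filter, with 26 above and 28 below their control. Of the 7 macrophage markers 6 were lower in LTKO than in its control, with a median of -0.35, and their part in the clade B values was not tested.

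Serping1, Serpinb6a, Serpinb6b and Serpinb9 were lower in both Cre lines, each than in its own control. Most genes past the filter lay on that side, since 43.2% in LDKO and 42.8% in LTKO were above 0. The share of all genes lower in both, or below both controls in both, was not counted. Serping1 differed by -0.60 in LDKO and -0.33 in LTKO, and the 4 arrays order as LTKO, LDKO, the Irs1/2:FoxO1-flox control and the Irs1/2-flox control from low to high. Both Cre lines also lay below both controls for Serpinb9 and Serpinb6a, but not for Serpinb6b, where LDKO at 6.19 lay above the Irs1/2:FoxO1-flox control at 6.13. All of these differences are below 2-fold, and the controls differ from each other by -0.28 for Serping1, 0.06 for Serpinb9, -0.20 for Serpinb6a and -0.87 for Serpinb6b. For Serpinb6b that exceeds the difference of either Cre line from its own control.

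Set directly against LDKO, LTKO was 2-fold higher at Serpina1c and 2-fold lower at Serpina3b, 1 of 11 serpins each way, against 1.51% and 0.6% of 11660 genes. Serpinb8 and Serpinf1 were lower in LTKO by 0.73 each and Serpinh1 by 0.53. Serpinb8 was 5.33 in LTKO and 6.06 in LDKO, and Serpinf1 was 6.60 in LTKO and 7.32 in LDKO. For Serpinb8, Serpinf1 and Serpinh1 the controls lay between the Cre lines, though for Serpinh1 LTKO differed from its control by only -0.01. The direct values also hold any difference between the floxed lines.

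The 2 controls show how far arrays without Cre differ. Serpinb1a was the 1 serpin 2-fold apart between them, with 3.996 in the Irs1/2:FoxO1-flox control, against 5.17 in the Irs1/2-flox control, a difference of -1.18. It entered only through the Irs1/2-flox control, just above the 5.15 of the median gene, and no call was left with the filter at the 70th percentile or at 3-fold. Of 11432 genes 0.507% were 2-fold lower and 0.262% 2-fold higher in this comparison, and no serpin was 2-fold higher. Serpinb6b was 6.13 in the Irs1/2:FoxO1-flox control, against 6.99 in the Irs1/2-flox control, a difference of -0.87. Serpina3n was 11.42 in the Irs1/2:FoxO1-flox control, against 10.68 in the Irs1/2-flox control, a difference of 0.74. The Serpinb6b and Serpinb1a values are larger than the difference of any serpin from its own control other than Serpina3b in LDKO and Serpina1c in LTKO. Serpina1c was 0.80 higher in the Irs1/2:FoxO1-flox control, at signals below the filter. The median of the 10 serpins past the filter was -0.24, against 0.03 for all genes past it. The Irs1/2:FoxO1-flox control was also lower in all mast cell and mesothelial markers past the filter, with medians of -0.94 and -0.73. All 5 skeletal muscle markers past the filter were lower there too, 2 of them by 2-fold, with a median of -0.998, and so were 6 of 7 macrophage markers, with a median of -0.23. The 2 muscle markers called, Myh4 and Ttn, and the mast cell marker Tpsb2 passed only through the Irs1/2-flox control. They could thus only be counted as lower. Of all genes past the filter 55.5% were above 0 in this comparison. The part of these cell types in the serpin values was not tested.

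**Figure D4:**
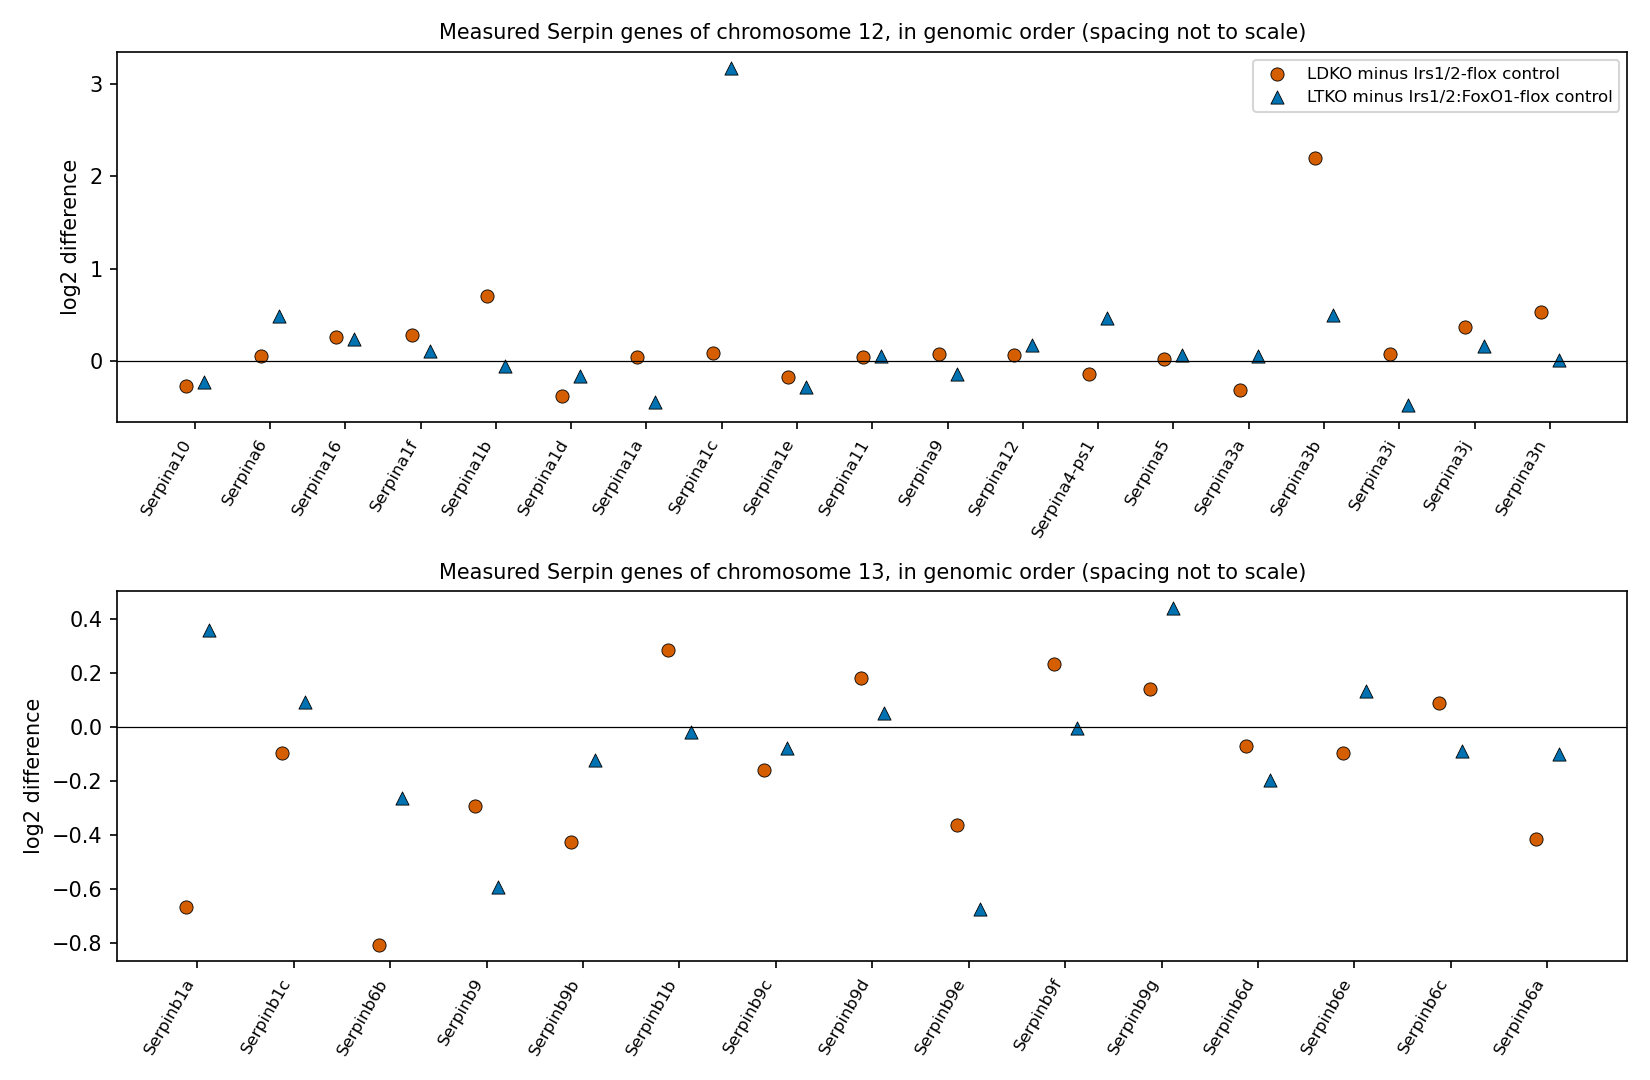
Log2 differences, 1 array per group, of the 19 measured Serpin genes of chromosome 12 (top) and the 15 of chromosome 13 (bottom), in genomic order with spacing not to scale. On chromosome 12 a single gene stands apart in each comparison, Serpina1c in LTKO (triangle) and Serpina3b in LDKO (circle), while on chromosome 13 all values lie between -0.81 and 0.44.

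The 19 genes on chromosome 12 and the 15 on chromosome 13 make up most of the family. On chromosome 12, Serpina1c in LTKO and Serpina3b in LDKO were 2-fold above their control, with 7 measured genes between them in the RefSeq order. Serpina3a, the measured neighbour of Serpina3b, was dim on every array, and the 6 genes after Serpina3b, Serpina3c to Serpina3h with their pseudogenes, are not analysed here. On chromosome 13, Serpinb9e at -0.68 in LTKO and Serpinb6b at -0.81 in LDKO had the lowest differences, Serpinb9e at a dim signal. The 11 members on chromosome 1 included Serpinc1 and a row of clade B genes of skin and other epithelia. Among these Serpinb8 alone passed the filter. From Serpinb5 (maspin) to Serpinb2, the 9 others of clade B there differed by -0.18 to 0.37 in LDKO and by -0.33 to 0.26 in LTKO. Serpinb2, plasminogen activator inhibitor 2, was 3.58 in LDKO and 3.21 in its control, and 2.98 in LTKO and 3.04 in its control.

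Several serpins that are known for roles in fat or at a distance from it gave dim signals here. Serpina12, the adipokine vaspin, was 3.44 in LDKO, 3.37 in its control, 3.58 in LTKO and 3.41 in its control, all below the median gene. Serpini1, the neuronal inhibitor neuroserpin, was 3.31 in LDKO and 2.99 in its control, and 3.39 in LTKO and 3.38 in its control. Serpini2 lay between 2.44 and 2.66 and Serpine3 between 3.71 and 3.93. Serpinf2 was highest at 4.10 and lowest at 3.81. Whether such signals are above background cannot be told, since the values carry no detection call. Serpine2, Serpina3k and Serpina3m are not analysed here.

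Of 37 listed proteases and cofactors that serpins act on or with, 35 were measured, 21 passed the filter in each comparison of a Cre line with its control, and 0 of them were 2-fold apart in either. With 0.572% of all genes 2-fold higher and 0.624% lower in LDKO, and 1.73% higher and 0.0434% lower in LTKO, a count of 0 is near the background. The medians were -0.08 in LDKO and -0.12 in LTKO. The 3 with the largest differences in LDKO were tissue factor F3, which starts clotting, at 9.24 in LDKO and 8.44 in its control, Lrp1, the receptor that clears serpin and protease complexes, at 9.08 in LDKO and 9.73 in its control, and Procr, the protein C receptor, at 6.42 in LDKO and 6.94 in its control. In LTKO they were the neutrophil protease Prtn3 at 4.92 in LTKO and 5.75 in its control, and the epithelial proteases Prss8 at 6.59 in LTKO and 5.87 in its control and St14 at 5.17 in LTKO and 4.66 in its control. Prtn3 passed the filter only through its control, so it could only be counted as lower. St14 passed only through LTKO, so it could only be counted as higher. C1ra, a target of C1 inhibitor, differed by -0.32 in LDKO and -0.25 in LTKO, and Pnpla2, which Serpinf1 binds, by 0.02 in LDKO and -0.13 in LTKO. Of 16 other protease inhibitors, 7 passed the filter in LDKO with 0 at 2-fold, and 9 passed in LTKO with 1 at 2-fold, where 1.73% of all genes were 2-fold higher. That gene, picked after its values were seen, was Pzp, an inhibitor of the alpha-2 macroglobulin family, at 5.99 in LTKO and 4.02 in its control. Pzp passed the filter only through the LTKO array, so it could only be counted as higher.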

How the data were processed

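The authors deposited log2 signals per probe set, made with Affymetrix Expression Console and RMA, per the submitters' processing notes. RMA corrects background, normalizes quantiles and summarises probes. Versions, and which arrays were normalized together, were not given in the sources used here. Of 41345 probes, 23521 have 1 gene symbol and 1814 several; probes with several were left out, among them 2 with Serpin symbols. Gene identifiers matched RefSeq GRCm38.p6 for all 55 Serpin probes with 1 symbol. Serpinb9b has 2 probes, whose differences had the same sign in both Cre lines.

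A gene was its probe with the highest mean. Genes were described by a log2 difference of at least 1 among those whose higher array reached the median gene (5.15), with no test at 1 array per group. The number of arrays limits the precision. Genes were named if 2-fold apart, if among the 2 members with the highest mean in their clade, if on a list of serpins with known roles, if their probes disagreed in sign, or if among the 3 partners with the largest difference. The members, 13 gene lists and named genes were chosen with earlier results of these data known. The 2-fold size rule was tested on simulated arrays with an assumed noise, with differences planted in genes at or above the median gene. The other steps were not tested on simulated data. Alternatives were other thresholds, filters, probe rules, scalings and references. Python 3.11.15, numpy 2.4.6, pandas 2.3.3, statsmodels 0.14.6 and matplotlib 3.10.9 were used.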

Additional observations from a re-analysis of the deposited data

Results flagged for a closer look

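Serpinb1a, the inhibitor of neutrophil elastase, differed in opposite directions in the 2 Cre lines, -0.67 in LDKO and 0.36 in LTKO, each against its own control, so the difference in LTKO exceeded that in LDKO by 1.02 on the log2 scale. The difference between the lines was not tested, with 1 array each. Its signals were 4.51 in LDKO and 5.17 in its control, and 4.35 in LTKO and 3.996 in its control, and LTKO set directly against LDKO was at -0.15. The LTKO difference was between signals below the filter, and the Irs1/2-flox control alone reached the median gene. With the controls exchanged the directions turned, to 0.51 in LDKO and -0.82 in LTKO, so the gap rests on the controls.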

How the results depend on the processing

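The log2 differences named as 2-fold apart, those of Serpina3b, Serpina1c and Serpinb1a, kept their sign and their 2-fold size under repeated quantile normalization and removal of a loess curve, and those against an own control also with the other control or the mean of both as reference. Each has 1 probe, so the mean of all probes could not change them. At 1.5-fold the counts were 2 higher and 3 lower in LDKO, 1 lower in LTKO, 1 higher and 2 lower between the controls, and 3 lower in LTKO against LDKO. The share of all genes at 1.5-fold was not counted, so these counts have no background to be read against. At 3-fold the controls had 0 lower. With the filter at the 70th percentile Serpina3b and Serpinb1a dropped out, which left 0 higher in LDKO, 0 lower between the controls and 0 lower in LTKO against LDKO, and the medians were -0.11 in LDKO and -0.0161 in LTKO against LDKO. With no filter the medians over all members were 0.0514 in LDKO, -0.0083 in LTKO, 0.00996 between the controls and 0.0067 in LTKO against LDKO. Over all genes the medians were then 0.0009, -0.02, 0.004 and -0.005, in the same order. With the other control as reference, 1 serpin (Serpinb6b) was 2-fold lower in LTKO, as were 47 of 11612 genes, and the LTKO median was -0.33. The cause was not tested where values moved with the reference. Signal over background is not given per probe, so dim members have no lower limit.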

Other observations

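The 2 Serpin probes with several symbols, left out above, gave dim signals. The probe shared by Serpinb10 and Serpinb2 was 4.13 in LDKO and 4.59 in its control, and 3.94 in LTKO and 3.98 in its control. The probe shared by 1110046J04Rik and Serpinb6a was 2.83 in LDKO and 3.32 in its control, and 3.01 in LTKO and 2.56 in its control, so it differed by 0.46 in LTKO, where the Serpinb6a probe used above differed by -0.10.

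Slpi, a secreted inhibitor of leukocyte elastase outside the family, was 6.53 in LDKO and 7.36 in its control, and 5.86 in LTKO and 6.34 in its control, and the controls differed by -1.02. Itih5, which links hyaluronan in the matrix and is made by fat cells, was 9.95 in LDKO and 10.78 in its control, and 11.01 in LTKO and 11.09 in its control, so LDKO was the low array and LTKO set directly against it was at 1.06. These genes were picked after their values were seen.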
